A study of Mus musculus with 30 samples.

Results

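Most of the genes described here encode the nuclear subunits of the mitochondrial respiratory chain and ATP synthase, with the electron carrier cytochrome c. Members were the rows of the expression table whose symbol belongs to the families of complex I (Nduf), complex II (Sdh), complex III (Uqcr and Cyc1), complex IV (Cox4 to Cox8) and complex V (Atp5), and Cycs. Of 48709 genes in the table, 91 rows had such a symbol. Of these, 6 processed pseudogene rows, all at 0 in every library, were dropped, which left 85 members. Complex I had 36 members, complex II 4, complex III 9, cytochrome c 1, complex IV 18 and complex V 17. Complexes were assigned by symbol. All counts by complex therefore include Atp5s and Atp5sl under complex V, Ndufa4 under complex I and Cox7a2l under complex IV, whose products are described otherwise below.

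The cells were C2C12, a mouse myoblast line that stops dividing and fuses into myotubes when serum is lowered. The tested cells were given potassium chromate, a source of hexavalent chromium or Cr(VI), at 5 µM or 2 µM in differentiation medium (DMEM with 2% horse serum) and taken on days 1, 2 and 4. Control cells had 0 µM in the same medium on the same days, and a group at 0 µM was taken on day 0. All cells had been grown in high-glucose DMEM with 20% fetal bovine serum before the switch. There were 3 libraries in each of the 10 groups, 30 in all. They are labelled as biological replicates, nothing in the labels says that they were separate cultures, and p-values therefore measure only the spread between these libraries, which may be technical. C2C12 is a single cell line, so nothing here speaks for other muscle cells.

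In the respiratory chain, complexes I and II pass electrons from NADH and succinate to ubiquinone, complex III passes them on to cytochrome c, and complex IV hands them to oxygen. Complexes I, III and IV pump protons across the inner mitochondrial membrane, and complex V uses the return flow to make ATP. Skeletal muscle and heart carry muscle forms of several complex IV subunits, among them Cox6a2, Cox7a1 and Cox8b, in place of the broadly expressed Cox6a1, Cox7a2 and Cox8a. Most subunits of the chain are encoded in the nucleus, and 13 are encoded by mitochondrial DNA. The factors NRF1 and GABP and coactivators of the PGC family are known to drive the nuclear genes.

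Levels are given as scaled CPM, the unit of the deposited table, in which a library's reads are multiplied by 1 constant, close to that of CPM. The libraries held 18.5 to 26.9 M reads, and 1 read was worth 0.038 to 0.0584 scaled CPM. Changes are differences of log2(scaled CPM + 1), with the standard error (SE) and the Benjamini-Hochberg adjusted p of limma over 12946 genes. A member was called when that p was below 0.05, and this scale understates the change of a gene at low level. Of the 85 members, 81 passed the filter on low values (1 scaled CPM in at least 3 libraries). The 4 that did not are the tissue-restricted paralogs Cox4i2, Cox6b2, Cox7b2 and Cox8c. Cox8c was at 0 in all 30 libraries.

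A pair of day 1 libraries held transcripts of other tissues. The first 2 µM library of day 1 had a summed level of 8 adipocyte markers of 3929 scaled CPM, against 13.6 to 73.1 in the other libraries. The third 5 µM library of day 1 had 333 scaled CPM over 5 lung epithelium markers and 300 over 5 leukocyte markers, against at most 0.36 and 0.808 elsewhere. Skeletal muscle identity was present in control cells, where all 7 skeletal muscle markers were higher on day 4 than on day 0 and their summed level was 20367 to 23218 scaled CPM on day 4, against 679 to 879 on day 0.

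In control cells the members rose together during differentiation. Together they took 1.72 ± 0.2% of reads on day 4 and 1.3 ± 0.061% on day 0 (SD, n = 3 each). Of the 81 tested members, 72 rose and 1 fell on day 4 against day 0, where 30.3% of all genes tested rose and 29.5% fell (59.8% called). The median change over the members was 0.67 on the log2 scale, and over all genes it was 0.01. The 13 subunits encoded by mitochondrial DNA moved in the same direction, with 12 higher and 0 lower.

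The rise was spread over the complexes and over the days. In complex I 35 of 36 members rose with a median of 0.76, in complex III 7 of 9 with 0.60, in complex IV 12 of 14 with 0.80 and in complex V 16 of 17 with 0.50. Complex II, which also serves the tricarboxylic acid cycle, had 2 of 4 members higher and a median of 0.23. Of the 73 calls on day 4 against day 0, 65 held with each of the 6 libraries left out in turn. The calls that did not hold were those of Sdhc in complex II and of Uqcr10, Ndufa8, Cox8a, Atp5b, Atp5c1, Atp5g3 and Atp5s. Between day 0 and day 1 the directions were mixed, with 21 members higher and 11 lower (25.4% of all genes rose and 22.7% fell, 48.1% called), or 28 and 9 when libraries were scaled to an equal sum of nuclear reads. From day 1 to day 2, 31 members rose and 0 fell (12.8% of all genes rose and 9.42% fell, 22.2% called), and from day 2 to day 4, 33 rose and 2 fell (11.7% of all genes rose and 14.1% fell, 25.7% called). The 2 that fell in this last step were Cox6a1 and Cox8a.

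Among complex I members the largest rises by day 4 were those of Ndufa13, an accessory subunit also known as GRIM-19, and Ndufv3, an accessory subunit of the NADH-binding module. Ndufa13 was at 197, 262 and 190 scaled CPM in the control libraries of day 4, against 59.7, 70.3 and 68 on day 0 (log2 change 1.69, SE 0.12, limma adjusted p = 6.3e-14). Ndufv3 was at 76.9, 81.2 and 64.7 scaled CPM on day 4, against 28, 23.2 and 25.7 on day 0 (log2 change 1.5, SE 0.12, limma adjusted p = 7.4e-13). Neither gene's day 4 libraries overlapped those of day 0. Uqcr11 and Uqcrq, small subunits of complex III, led that complex with log2 changes of 1.27 and 1.01. In complex V, Atp5e, the epsilon subunit of the F1 stalk, rose by 0.85. Atp5s, known as a coupling factor and not as a subunit of the enzyme, rose by 0.87 from a level under 5 scaled CPM, where calls are less secure, and its call was lost without the second library of day 0 (limma adjusted p = 0.21).

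Cytochrome c went the other way. Cycs, which encodes the somatic cytochrome c, fell on the first day of differentiation and had not regained its day 0 level on day 4. It was at 202, 206 and 194 scaled CPM on day 0, at 89.6, 93 and 93 on day 1, at 127, 135 and 116 on day 2 and at 132, 153 and 104 on day 4 in control cells. Its log2 change was -1.12 on day 1 (SE 0.11, limma adjusted p = 8.1e-11) and -0.64 on day 4 (SE 0.11, limma adjusted p = 3.3e-06), both against day 0. Cyc1, the cytochrome c1 subunit of complex III, also fell on day 1 (log2 change -0.50, SE 0.11, limma adjusted p = 0.00023). On day 4 the control libraries of Cyc1 were at 210, 245 and 195 scaled CPM, against 174, 215 and 171 on day 0, and it was not called.

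**Figure D1:**
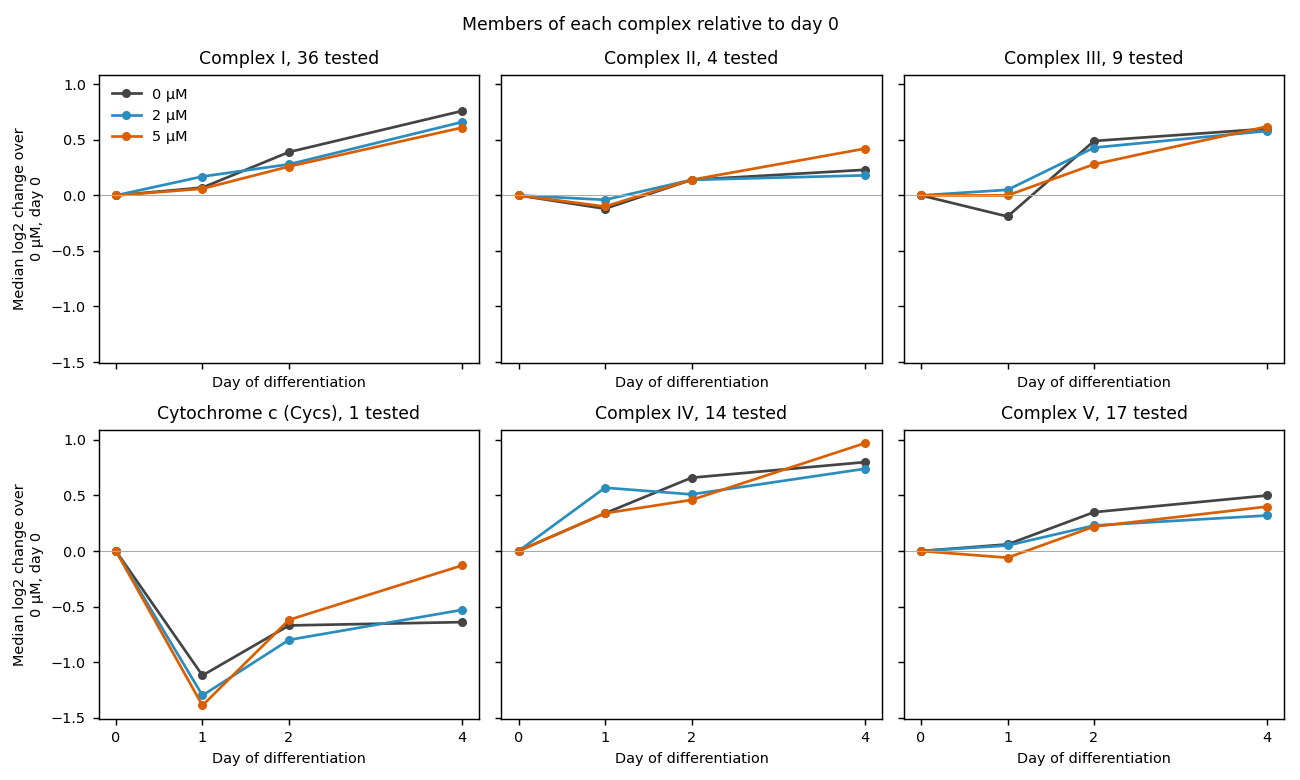
Median log2 change of the tested members of each complex over control day 0 (y axis) by day of differentiation (x axis), with 1 line per Cr(VI) dose; every line starts from the same untreated day 0 group. On day 4 the medians of complex I were 0.76 at 0 µM, 0.66 at 2 µM and 0.61 at 5 µM, while complex IV reached 0.80, 0.74 and 0.97 and Cycs stood at -0.64, -0.53 and -0.13.

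The muscle isoforms of complex IV had the largest changes of all members during differentiation. Cox6a2 had 4120 reads over the 3 control libraries of day 4, against 1 read over the 3 libraries of day 0, a ratio of 4007 per read total (exact 95% interval 719 to 158297, counting error only). Its levels were 24.0, 26.8 and 28.7 scaled CPM on day 2 and 61.2, 79.2 and 62.2 on day 4 in control cells. The log2 change from day 0 to day 4 was 6.06 (SE 0.37, limma adjusted p = 6.7e-16). Cox6a2 was thus near absent in myoblasts and was called higher by limma at each step after that. The call on day 1 was lost without the second control library of that day (limma adjusted p = 0.071). Of the fits on read counts, edgeR did not call the step from day 2 to day 4. DESeq2 called none of these steps, nor the change from day 0 to day 4.

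Cox8b likewise had 2438 reads on control day 4, against 1 on day 0, a ratio of 2371 (exact 95% interval 425 to 93688). It appeared on day 1, with 3.47, 2.87 and 2.56 scaled CPM in control cells, and stood at 25, 20.3 and 25.2 on day 2 and at 38.3, 42.1 and 39.1 on day 4. Its log2 change from day 0 to day 4 was 5.33 (SE 0.29, limma adjusted p = 2.1e-17). Cox7a1 was later and lower. It was at 0.405, 0.715 and 0.573 scaled CPM on day 0, at 2.22, 2.29 and 2.22 on day 2 and at 9.3, 8.26 and 11 on day 4 (log2 change from day 0 to day 4 2.75, SE 0.51, limma adjusted p = 2.2e-05).

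The promoter sequences of these isoforms and of their broadly expressed partners are shown because the results on Cr(VI) set each isoform against its partner. Each stretch runs from 250 bases before to 10 bases after the RefSeq start on GRCm38.p6, 5′ to 3′ on the strand of the gene. The stretches lie at chr7:140900437-140900696 on the minus strand for Cox8b, at chr7:30183921-30184180 on the plus strand for Cox7a1, at chr19:7217607-7217866 on the minus strand for Cox8a, at chr5:115348949-115349208 on the minus strand for Cox6a1 and at chr9:79759844-79760103 on the minus strand for Cox7a2. Cox6a2 is not shown. Capitals mark matches on either strand to the palindrome bound by NRF1 (GCGCA followed by TGCGC), to CCGGAAG, an ETS site of the kind bound by GABP, and to CANNTG, the E-box, of which CAGCTG is the form favoured by myogenic factors.
Cox8b: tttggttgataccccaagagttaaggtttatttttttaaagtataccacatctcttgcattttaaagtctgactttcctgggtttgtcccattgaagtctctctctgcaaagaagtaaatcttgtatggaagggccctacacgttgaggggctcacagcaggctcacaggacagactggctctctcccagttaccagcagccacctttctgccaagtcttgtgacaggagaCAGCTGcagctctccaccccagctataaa
Cox7a1: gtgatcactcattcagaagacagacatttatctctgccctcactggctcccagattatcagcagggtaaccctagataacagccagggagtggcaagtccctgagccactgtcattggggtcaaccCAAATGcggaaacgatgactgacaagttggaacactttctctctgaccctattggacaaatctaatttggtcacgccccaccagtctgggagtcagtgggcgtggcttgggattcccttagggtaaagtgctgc
Cox8a: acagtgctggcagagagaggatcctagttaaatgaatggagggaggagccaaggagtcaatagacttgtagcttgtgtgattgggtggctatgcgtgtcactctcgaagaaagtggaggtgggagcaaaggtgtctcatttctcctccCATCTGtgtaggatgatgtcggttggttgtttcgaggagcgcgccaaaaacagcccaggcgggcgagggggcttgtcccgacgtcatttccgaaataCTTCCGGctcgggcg
Cox6a1: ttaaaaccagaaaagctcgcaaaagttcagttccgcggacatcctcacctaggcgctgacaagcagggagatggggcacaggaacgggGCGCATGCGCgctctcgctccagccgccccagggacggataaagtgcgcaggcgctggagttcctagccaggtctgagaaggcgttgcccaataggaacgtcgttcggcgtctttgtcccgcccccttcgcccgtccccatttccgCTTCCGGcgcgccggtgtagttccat
Cox7a2: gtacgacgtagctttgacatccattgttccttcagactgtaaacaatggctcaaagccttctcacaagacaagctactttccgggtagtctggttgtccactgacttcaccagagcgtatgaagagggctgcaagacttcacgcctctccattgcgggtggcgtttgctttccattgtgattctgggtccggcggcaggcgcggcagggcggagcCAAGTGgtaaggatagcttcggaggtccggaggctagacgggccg

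The Cox8b stretch holds CAGCTG at -19, counted from the start, and the Cox7a1 stretch holds a CANNTG match at -124 and no other marked match. Cox6a1 holds the NRF1 palindrome at -162 and CCGGAAG, on the opposite strand, at -16. Cox8a holds CCGGAAG on the opposite strand at -5 and a CANNTG match at -102, and Cox7a2 holds a CANNTG match at -35. In the windows of 300 bases (250 before and 50 after the start) the GC content was 48.3% for Cox8b, 53.0% for Cox7a1, 56.0% for Cox8a, 56.7% for Cox7a2 and 63.0% for Cox6a1. The tables gave windows for 67 members, 72 windows in all, with a median GC content of 57.3%, against 52.7% over all 32851 windows. The NRF1 palindrome was in 6.94% of member windows and 0.971% of all windows, CCGGAAG in 22.2% and 8.86%, CAGCTG in 8.33% and 16.3%, and CANNTG in 68.1% and 72.3%. AAGGTCA, a site of the kind bound by ERR receptors, was in 11.1% of member windows and 4.72% of all windows, and a core of the MEF2 kind, CTA and TAG with 4 bases between them, in 1.39% and 3.69%. These matches are descriptions of sequence and say nothing about binding.

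At 5 µM Cr(VI) the muscle isoforms were lower and 2 of their 3 partners higher on day 4. Cox6a2 stood at 61.2, 79.2 and 62.2 scaled CPM at 0 µM, at 41.7, 44.6 and 42.2 at 2 µM and at 14.3, 20.8 and 15.8 at 5 µM. No library of one dose overlapped those of another. The change at 5 µM against 0 µM was -1.94 on the log2 scale (SE 0.37, limma adjusted p = 4.4e-05) and at 5 µM against 2 µM it was -1.30 (SE 0.37, limma adjusted p = 0.0043). At 2 µM against 0 µM it was -0.64 (SE 0.37, limma adjusted p = 0.34), which was not called. On day 2 the libraries of 5 µM were at 2.89, 3.68 and 4.94 scaled CPM, against 24.0, 26.8 and 28.7 in control (log2 change -2.53, SE 0.37, limma adjusted p = 2.8e-06). Under the alternative settings the day 4 change at 5 µM ranged from -2.08 to -1.72 and the call was kept in each setting that gave an adjusted p. DESeq2 was not among those settings. It called Cox6a2 neither at 5 µM against 0 µM on days 2 and 4 nor at 5 µM against 2 µM on day 4.

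On day 1 Cox6a2 was at 0.0426, 0.123 and 4.98 scaled CPM at 5 µM, against 1.0, 2.14 and 0.841 in control. The high value belongs to the library with lung and leukocyte transcripts. With all libraries the log2 change was -0.24 (SE 0.37, limma adjusted p = 0.75), and without that library it was -1.06 (SE 0.27, limma adjusted p = 0.0073). The part of the foreign transcripts in this value was not tested.

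Cox8b was lower at 5 µM on days 2 and 4 by a smaller margin. On day 4 it was at 23.8, 26.4 and 23.1 scaled CPM at 5 µM, against 38.3, 42.1 and 39.1 in control, without overlap (log2 change -0.69, SE 0.29, limma adjusted p = 0.043). On day 2 it was at 11, 10.5 and 17.3 scaled CPM at 5 µM, against 25, 20.3 and 25.2 in control (log2 change -0.84, SE 0.29, limma adjusted p = 0.031). This day 2 call was lost in some fits with a library left out, where the limma adjusted p reached 0.12. It was not made by edgeR or DESeq2 and was not kept in every other scaling. At 2 µM on day 4 Cox8b was at 43.9, 45.9 and 34.6 scaled CPM, a range that held the control values (log2 change 0.05, SE 0.29, limma adjusted p = 0.96). Cox7a1 was at 3.11, 3.72 and 3.68 scaled CPM at 5 µM on day 4, against 9.3, 8.26 and 11 in control, without overlap (log2 change -1.22, SE 0.51, limma adjusted p = 0.043). The day 4 calls of Cox8b and Cox7a1 are near the threshold and were kept under 8 and 7 of 20 alternative settings, and each was lost when any 1 of the 6 libraries compared was left out. With the pair of libraries that hold foreign transcripts left out, their adjusted p values were 0.0063 and 0.00077 in limma.

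The broadly expressed partners of Cox6a2 and Cox8b were higher. Cox6a1 stood at 187, 229 and 197 scaled CPM at 5 µM on day 4, against 115, 120 and 73.4 in control (log2 change 1.01, SE 0.14, limma adjusted p = 2e-07). Cox8a stood at 262, 287 and 281 scaled CPM at 5 µM, against 129, 171 and 103 in control (log2 change 1.07, SE 0.14, limma adjusted p = 3.3e-08). Neither pair of groups overlapped, and these were the largest rises of any complex IV member at 5 µM. Cox7a2, the partner of Cox7a1, was at 223, 257 and 279 scaled CPM at 5 µM, against 239, 280 and 176 in control, and was not called (log2 change 0.15, SE 0.11, limma adjusted p = 0.28). On day 2 the changes of Cox6a1 and Cox8a were 0.12 and 0.20 and were not called. In control cells both fell from day 2 to day 4, with log2 changes of -0.47 for Cox6a1 and -0.69 for Cox8a. The control call of Cox6a1 was lost in at least 1 fit with a library left out. Over the same step at 5 µM, the changes of the 3 partners were 0.18 to 0.47. The day 4 differences of Cox6a1 and Cox8a thus lay partly in a fall in control.

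**Figure D2:**
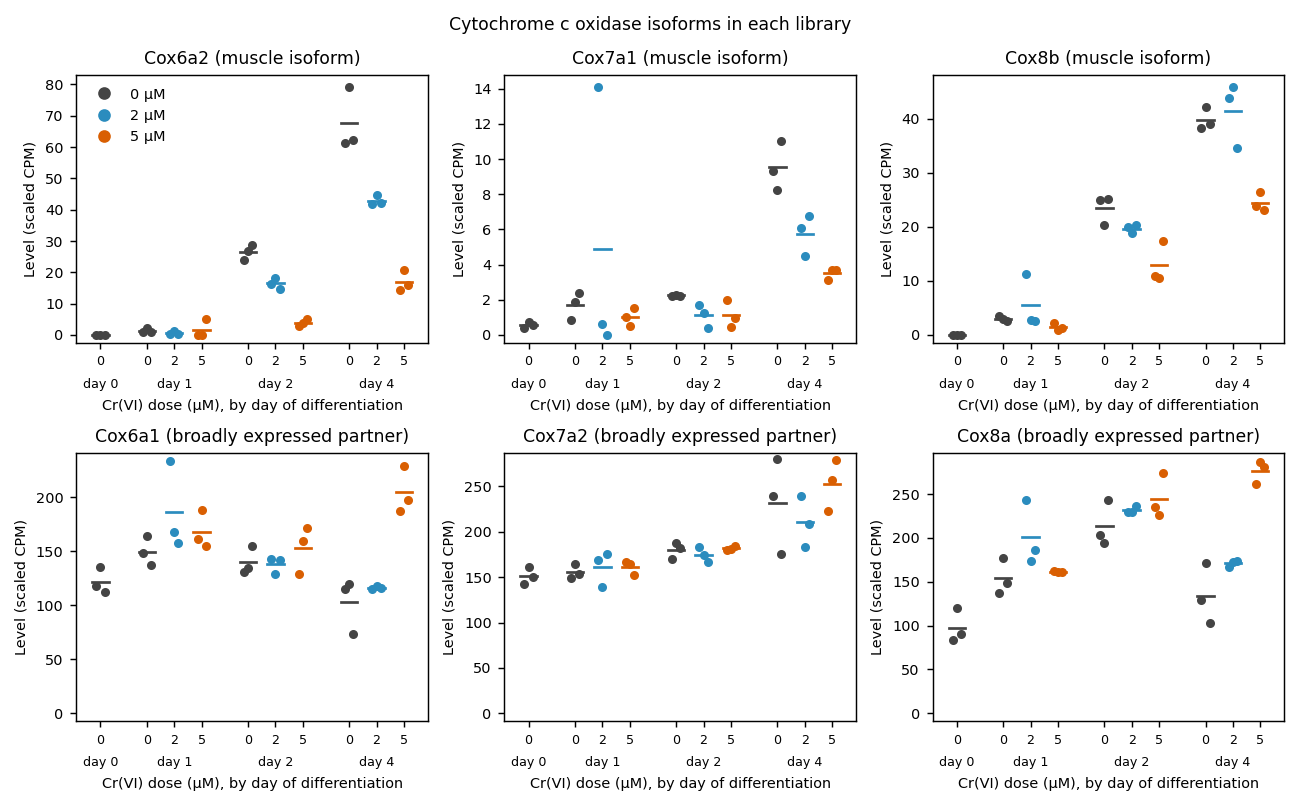
Levels in scaled CPM (y axis, from 0, each panel with its own scale) of the 3 muscle isoforms (upper row) and their broadly expressed partners (lower row) in each of the 30 libraries, by Cr(VI) dose within each day (x axis); points are libraries and bars are means of 3. Cox6a2 lay at 61.2 to 79.2 at 0 µM, 41.7 to 44.6 at 2 µM and 14.3 to 20.8 at 5 µM on day 4, while Cox6a1 and Cox8a were highest at 5 µM on day 4; the lone high 2 µM point of Cox7a1 on day 1 is the library with adipocyte transcripts.

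Within each library the muscle isoform could be set against its partner as a log2 ratio, of which only the change between groups has a meaning, since scaled CPM takes no account of transcript length. From day 0 to day 4 in control cells the ratio rose by 6.33 for Cox6a2 over Cox6a1, by 4.89 for Cox8b over Cox8a and by 2.16 for Cox7a1 over Cox7a2, with a pseudocount of 1. The size of these rises depends on the pseudocount: with 0.1 they were 9.45, 8.0 and 3.29, and with 5 they were 4.1, 2.74 and 0.81. On day 4 at 5 µM against 0 µM it differed by -2.95, -1.76 and -1.37. For each of these 6 differences the 3 libraries of one group did not overlap the 3 of the other, and the exact two-sided permutation p was 0.1, the smallest that 3 against 3 libraries allow (0.129 adjusted over the 9 comparisons made). At 2 µM against 0 µM the differences were -0.84 for Cox6a2 over Cox6a1 (exact permutation p = 0.1), -0.53 for Cox7a1 over Cox7a2 (exact permutation p = 0.2) and -0.33 for Cox8b over Cox8a (exact permutation p = 0.3).

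**Figure D3:**
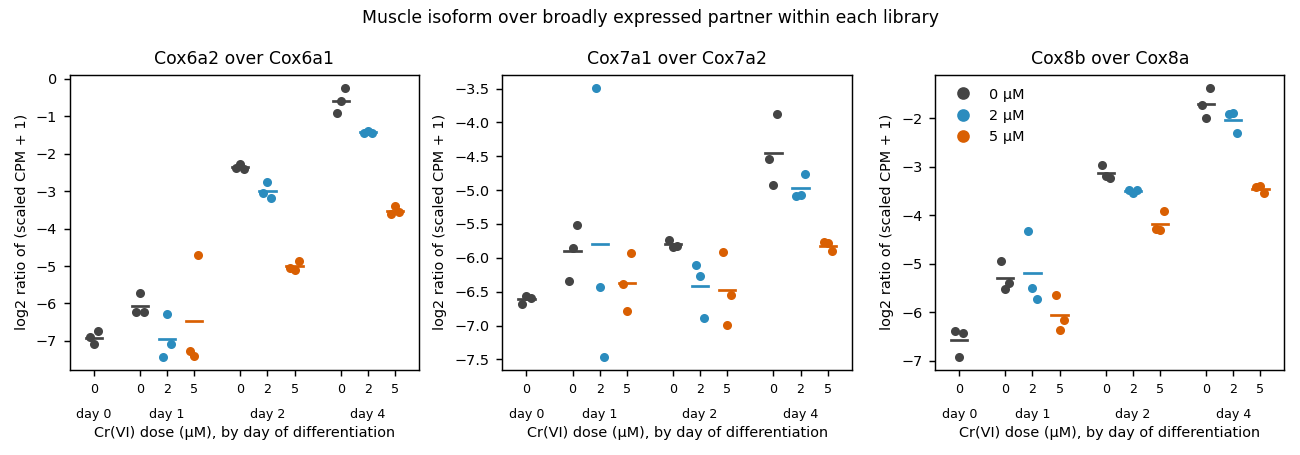
Log2 ratio of muscle isoform to broadly expressed partner, each as scaled CPM + 1 (y axis), in each library by Cr(VI) dose within each day (x axis); points are libraries and bars are means of 3. The mean ratio of Cox6a2 over Cox6a1 on day 4 was -0.58 at 0 µM, -1.42 at 2 µM and -3.53 at 5 µM, and that of Cox8b over Cox8a was -1.70, -2.03 and -3.45.

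The skeletal muscle markers were lower at 5 µM on days 2 and 4, where 2 and 3 of the 3 muscle isoforms were called lower. Cox7a1 was not called on day 2 (log2 change -0.66). Markers and isoforms were not lower together in every comparison. On day 1 all 7 markers were lower at 5 µM too (median -2.56), where 9.41% of all genes fell. At 2 µM 6, 3 and 3 of them were lower on days 1, 2 and 4 (1.48%, 0.247% and 3.74% of all genes). With all libraries, 0 of the 3 isoforms were called in these 4 comparisons. All 7 markers fell at 5 µM on day 4, and their summed level was 7207 to 8138 scaled CPM at 5 µM, against 20367 to 23218 in control. On day 2 it was 5470 to 5905 at 5 µM, against 13996 to 14583 in control. In a bulk sample fewer differentiated cells and less of these transcripts per cell cannot be told apart. Of 4 myoblast markers Myod1, Pax7 and Cdh15 fell and Myf5 rose, with a median of -0.94 and a summed level of 382 to 434 scaled CPM at 5 µM, against 538 to 598 in control. Of 8 adipocyte markers 3 passed the filter on low values, and 2 of these, Lpl and Pparg, rose at 5 µM on day 4. The summed level of the 8 was 59.6 to 73.1 scaled CPM at 5 µM, against 13.6 to 19.2 in control, while Adipoq, which defines the fat cell, was at 0, 0.338 and 0 scaled CPM at 5 µM, against 0, 0.152 and 0 in control. The part of these differences in the members' changes was not tested.

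Over all complexes the response to 5 µM on day 4 was divided. Of 81 tested members 18 rose, 26 fell and 37 were not called, where 27.3% of all genes tested rose and 28.6% fell. Calls were thus about as frequent among the members as over all genes, of which 55.8% were called. The median change was -0.06 over the members and -0.01 over all genes. The members' share of reads was 1.72 ± 0.074% at 5 µM and 1.72 ± 0.2% in control (SD, n = 3 each), which differed by less than the spread between libraries. At 5 µM on day 4, 66 members were still above control day 0 and 0 were below it (33.5% of all genes were above, 29.7% below and 63.2% called). With a fixed sum per library 59 were above and 6 below. A rise over day 0 was thus present under Cr(VI) too, and its link to differentiation was not tested. From day 2 to day 4 at 5 µM, 44 members rose and 1 fell (21.0% of all genes rose and 20.3% fell, 41.3% called).

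In complex I, the largest of the complexes, 13 of 36 members fell and 3 rose, with a median of -0.15. The share that fell was about the same in complex IV, with 5 of 14 tested, and in complex III, with 3 of 9. Over all genes 28.6% fell and 27.3% rose. Complex I took 0.394 ± 0.013% of reads at 5 µM and 0.465 ± 0.066% in control (SD, n = 3 each). The libraries overlapped, at 0.38 to 0.406% and 0.404 to 0.535%.

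Ndufs4, an accessory subunit of the NADH module, had the largest fall in complex I. It was at 64.9, 71.3 and 73.2 scaled CPM at 5 µM on day 4, against 178, 175 and 130 in control (log2 change -1.18, SE 0.12, limma adjusted p = 1.4e-10). On day 0 it had been at 77, 73 and 75.2 scaled CPM, so at 5 µM its level on day 4 was near that of myoblasts. On day 2 it was already lower at 5 µM (log2 change -0.60, SE 0.12, limma adjusted p = 0.00016).

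Ndufs1, the largest core subunit, was at 205, 206 and 224 scaled CPM at 0 µM, at 186, 138 and 173 at 2 µM and at 110, 118 and 124 at 5 µM on day 4. The doses did not overlap, and both changes were called, with -0.85 at 5 µM (SE 0.09, limma adjusted p = 6.5e-10) and -0.36 at 2 µM (SE 0.09, limma adjusted p = 0.0064). On day 2 its libraries at 5 µM were at 132, 130 and 134 scaled CPM, against 149, 155 and 149 in control. The fall grew between the days, with a difference of -0.65 between the effect on day 4 and that on day 2 (SE 0.13, limma adjusted p = 0.00019).

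Ndufc1, an accessory subunit of the membrane arm, was at 45.8, 49.2 and 48.5 scaled CPM at 5 µM on day 4, against 111, 112 and 74.7 in control (log2 change -1.02, SE 0.13, limma adjusted p = 7.8e-08). Ndufs8, a core subunit that binds iron-sulfur clusters, was at 38.7, 51.2 and 37.1 scaled CPM, against 77.9, 96 and 64.4 in control (log2 change -0.89, SE 0.16, limma adjusted p = 1.1e-05). Neither gene overlapped between groups. Ndufv1, which binds NADH, and Ndufs3 fell by 0.51 and 0.34. The accessory subunits Ndufa3, Ndufb2, Ndufa13, Ndufa10, Ndufa12 and Ndufv3 fell by 0.79, 0.76, 0.57, 0.52, 0.35 and 0.35.

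Ndufa8, an accessory subunit of the intermembrane face, rose most among genes of the Nduf family. It was at 152, 161 and 157 scaled CPM at 5 µM on day 4, against 101, 132 and 89 in control (log2 change 0.56, SE 0.11, limma adjusted p = 9.1e-05). Ndufa4, whose product is now assigned to complex IV, was at 390, 456 and 431 scaled CPM, against 348, 358 and 253 in control (log2 change 0.42, SE 0.11, limma adjusted p = 0.0013). Both sets of 5 µM libraries lay above those of control. Ndufb6, an accessory subunit of the membrane arm, rose by 0.37.

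Complex II, the succinate dehydrogenase, had 2 members higher and 0 lower at 5 µM on day 4. Sdhd, a membrane anchor, was at 188, 199 and 182 scaled CPM at 0 µM, at 183, 159 and 169 at 2 µM and at 268, 317 and 329 at 5 µM. Only the 5 µM libraries stood apart (log2 change at 5 µM against 0 µM 0.68, SE 0.09, limma adjusted p = 5.4e-08). The other anchor, Sdhc, was at 223, 259 and 289 scaled CPM at 5 µM, against 222, 218 and 163 in control (log2 change 0.36, SE 0.11, limma adjusted p = 0.0054). The catalytic subunits did not pass. Sdha, the flavoprotein, was at 257, 254 and 247 scaled CPM at 5 µM, against 277, 292 and 292 in control (log2 change -0.19, SE 0.09, limma adjusted p = 0.065), and the iron-sulfur subunit Sdhb had a log2 change of 0.08.

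Complex III was split, with 4 members higher and 3 lower. Uqcrfs1, the Rieske iron-sulfur protein, was at 207, 263 and 257 scaled CPM at 5 µM, against 171, 196 and 146 in control (log2 change 0.50, SE 0.10, limma adjusted p = 8.2e-05). Uqcr10, a small subunit, was at 102, 147 and 149 scaled CPM, against 98.5, 109 and 68.6 in control, with overlap (log2 change 0.53, SE 0.16, limma adjusted p = 0.0051). The core proteins Uqcrc1 and Uqcrc2 rose by 0.26 and 0.25. The small subunits Uqcr11 and Uqcrq went down instead.

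Uqcr11 was at 128, 133 and 118 scaled CPM at 5 µM on day 4, against 207, 284 and 167 in control (log2 change -0.76, SE 0.14, limma adjusted p = 2.9e-05). It was the member called lower on all 3 days, with log2 changes of -0.45 on day 1 and -0.43 on day 2. Uqcrq was at 73.7, 93.9 and 102 scaled CPM at 5 µM on day 2, against 161, 142 and 170 in control (log2 change -0.81, SE 0.14, limma adjusted p = 5.2e-05), and its change on day 4 was -0.47. Cyc1 was at 162, 188 and 151 scaled CPM at 5 µM on day 4, against 210, 245 and 195 in control, without overlap (log2 change -0.37, SE 0.11, limma adjusted p = 0.0036).

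Its partner Cycs moved in the opposite direction. Cycs was at 187, 182 and 181 scaled CPM at 5 µM on day 4, against 132, 153 and 104 in control (log2 change 0.51, SE 0.11, limma adjusted p = 1e-04). All 5 µM libraries lay above the control libraries and below the day 0 level of 194 to 206. At 2 µM on day 4 Cycs was at 135, 148 and 135 scaled CPM, within the control range.

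In complex IV 5 members rose and 5 fell at 5 µM on day 4. Besides Cox6a1 and Cox8a, the rises were those of Cox7a2l, a supercomplex assembly factor related to Cox7a2, of Cox7c and of Cox5a. Cox7a2l was at 327, 343 and 378 scaled CPM at 5 µM, against 242, 275 and 222 in control (log2 change 0.51, SE 0.10, limma adjusted p = 8.4e-05). Cox7c and Cox5a rose by 0.33 and 0.32. Besides the 3 muscle isoforms, Cox7b and Cox6c fell by 0.39 and 0.27. Cox4i1, the main form of subunit IV, was at 404, 487 and 491 scaled CPM at 5 µM, against 408, 469 and 314 in control, and was not called (log2 change 0.23, SE 0.11, limma adjusted p = 0.088). Cox6b1, the broad form of its subunit, was not called either (log2 change 0.13, limma adjusted p = 0.26).

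Complex V, as assigned by symbol, had 3 members higher, among them Atp5sl, and 5 lower. Atp5b, the catalytic beta subunit, was at 2636, 2927 and 2881 scaled CPM at 5 µM on day 4, against 2326, 2416 and 2155 in control (log2 change 0.29, SE 0.07, limma adjusted p = 0.0011). Atp5e was at 94.4, 115 and 118 scaled CPM, against 164, 221 and 146 in control (log2 change -0.68, SE 0.11, limma adjusted p = 6e-06). Both subunits belong to the F1 part, and neither overlapped between groups. Of the 3 genes that encode the same c subunit of the proton-driven ring, Atp5g2 was at 248, 268 and 257 scaled CPM, against 333, 378 and 383 in control (log2 change -0.50, SE 0.09, limma adjusted p = 2.2e-05). Atp5g1 was also lower (log2 change -0.37, SE 0.12, limma adjusted p = 0.0065), and Atp5g3 was not called (log2 change 0.17, SE 0.09, limma adjusted p = 0.11).

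The peripheral stalk subunits Atp5h and Atp5o fell by 0.35 and 0.21, and the small membrane subunit Atp5l rose by 0.36. Atp5sl, which is not a subunit of the enzyme and is known as a factor in complex I assembly, was higher at 5 µM on days 1 and 4. It was at 12.4, 12.6 and 11.4 scaled CPM at 5 µM on day 1, against 6.59, 5.66 and 6.77 in control (log2 change 0.84, SE 0.24, limma adjusted p = 0.015). On day 2 it was at 8.84, 11.7 and 9.74 scaled CPM at 5 µM, against 7.35, 5.4 and 5.77 in control, which missed the threshold (log2 change 0.63, SE 0.24, limma adjusted p = 0.054). On day 4 it was at 12.9, 10.9 and 10.6 scaled CPM at 5 µM, against 8.99, 4.36 and 5.71 in control (log2 change 0.80, SE 0.24, limma adjusted p = 0.0049).

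**Figure D4:**
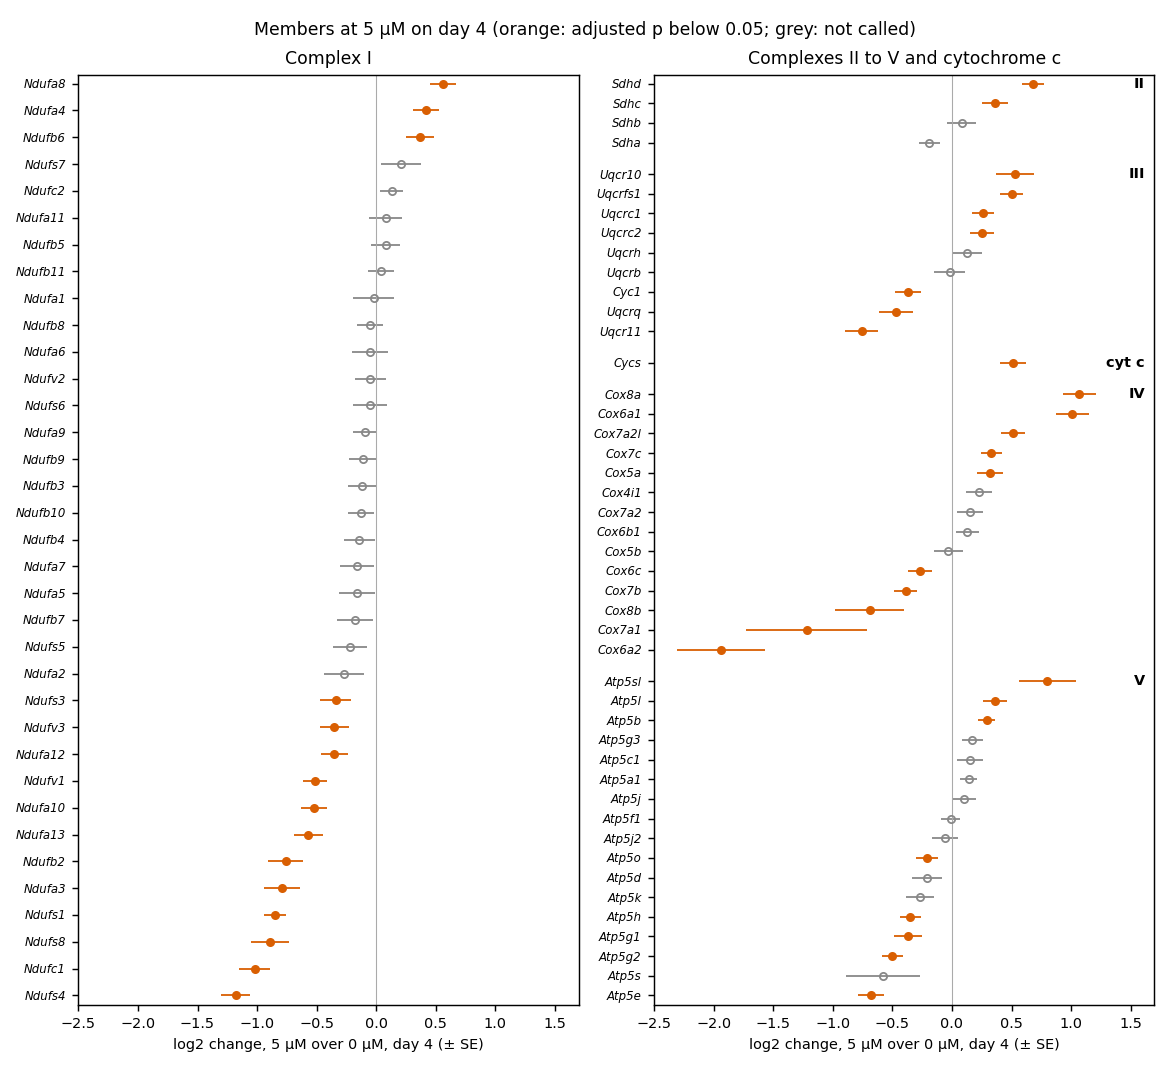
Log2 change at 5 µM against 0 µM on day 4 (x axis, on the log2(scaled CPM + 1) scale) of the tested members, 1 of complex I left out, sorted within complexes; bars are 1 SE either way, orange points have an adjusted p below 0.05 in limma and grey points do not. Ndufs4 (-1.18) and Ndufc1 (-1.02) are at the low end of complex I, Sdhd (0.68) at the high end of complex II, and Cox6a2 (-1.94) and Cox8a (1.07) at the 2 ends of complex IV.

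Single libraries decided some of the day 4 calls at 5 µM. Of the 44 calls, 29 held with each of the 6 libraries left out in turn, and the other 15 did not. Without the third control library, the lowest of the group for many members, the limma adjusted p was 0.096 for Sdhc, 0.085 for Uqcr10, 0.063 for Atp5l, 0.14 for Cox5a, 0.1 for Uqcrc1 and 0.2 for Uqcrc2. Without the second it was 0.066 for Atp5g1, 0.051 for Atp5sl, 0.074 for Ndufv3, 0.18 for Ndufs3, 0.092 for Cox6c and 0.23 for Atp5o. Without the third library of 5 µM it was 0.055 for Ndufb6. Cox7a1 and Cox8b complete the set. Ndufs4, Ndufs1, Ndufc1, Ndufs8, Sdhd, Uqcr11, Uqcrfs1, Cycs, Cox6a1, Cox6a2, Cox8a, Atp5b, Atp5e and Atp5g2 are among the 29.

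The response was smaller on the earlier days. On day 1 at 5 µM, 1 member rose and 3 fell, where 4.29% of all genes rose and 9.41% fell (13.7% called). With median-of-ratios scaling 1 rose and 1 fell, and with quantile normalization 2 rose and 0 fell. The rise was that of Atp5sl, and the falls were those of Uqcr11, Cox7c and Atp5g1. None of the 4 calls held with each library left out in turn, with an adjusted p in limma of 0.063 for Atp5sl without the second control library and of 0.082 for Uqcr11 without the 5 µM library that holds lung transcripts. On day 2, 2 members rose and 12 fell, where 10.2% of all genes rose and 13.4% fell (23.7% called). The rises were those of Ndufa8 and Cox7a2l, at 0.31 and 0.30. Of the 12 falls 5 were in complex I (Ndufs8, Ndufs4, Ndufa1, Ndufc1 and Ndufa12), 2 in complex III, 4 in complex IV and 1, Atp5e, in complex V. The median change was -0.10 over the members and -0.01 over all genes. The calls that held with each library left out in turn were 5 of the 14, namely those of Cox6a2, Uqcrq, Cox7b, Ndufs4 and Ndufs8.

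**Figure D5:**
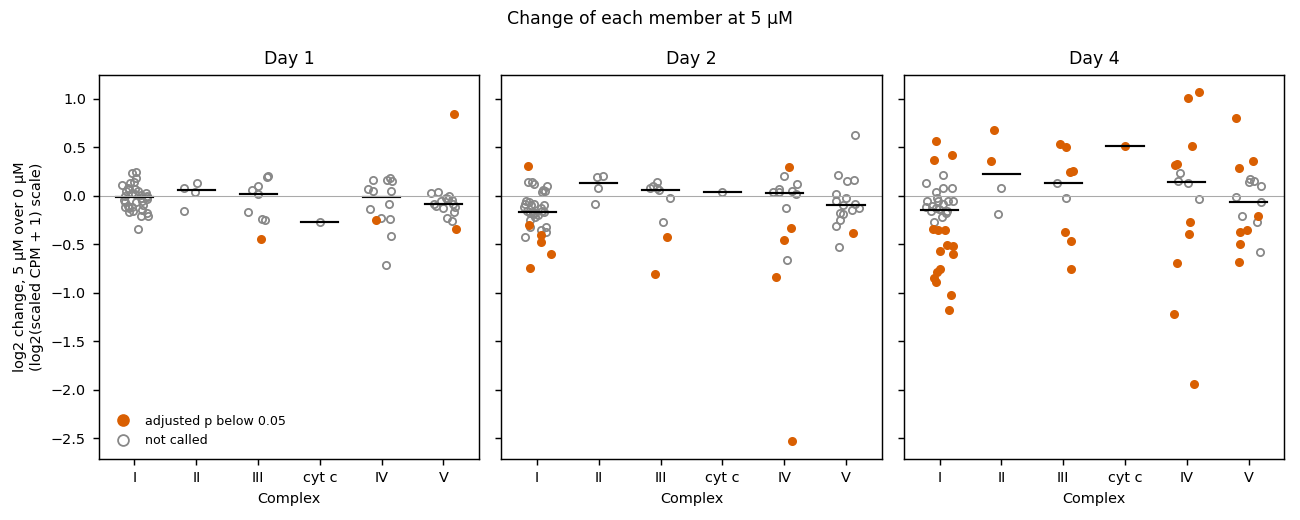
Log2 change at 5 µM against 0 µM (y axis, on the log2(scaled CPM + 1) scale) of every tested member by complex (x axis) on days 1, 2 and 4; filled points have an adjusted p below 0.05 in limma, open points do not, and bars are medians. On day 4 the medians were -0.15 in complex I, 0.22 in complex II, 0.13 in complex III, 0.14 in complex IV and -0.06 in complex V, and the lone member of cytochrome c was at 0.51.

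The change of the 5 µM effect between days 2 and 4 was itself tested. For 6 members it was more positive on day 4 and for 5 more negative, where 12.5% of all genes were more positive and 11.2% more negative (23.7% called). With median-of-ratios scaling the counts were 4 and 7, and with quantile normalization 4 and 6, so this division depended on the scaling. The positive members were Cox6a1, Cox8a, Sdhd, Cycs, Uqcrfs1 and Atp5b. The negative members included Ndufs1, Ndufc1, Ndufs4 and Atp5g2.

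At 2 µM few members moved. On day 1, 1 member, Ndufv3, rose and 0 fell (0.518% of all genes rose and 1.48% fell, 1.99% called), and the call was lost without the library that holds adipocyte transcripts (limma adjusted p = 0.32). On day 2, 0 members were called by limma (0.51% of all genes called), and by limma, edgeR and DESeq2 2, 1 and 2 members had an unadjusted p below 0.05. On day 4, 0 rose and 2 fell (5.11% of all genes rose and 3.74% fell, 8.84% called), and 9 members had an unadjusted limma p below 0.05. The members called were Ndufs1 and Atp5o, a peripheral stalk subunit also known as OSCP, with log2 changes of -0.36 and -0.29. The limma adjusted p of Ndufs1 was 0.1 without the second 2 µM library, and that of Atp5o was above 0.05 in 5 of the 6 fits that left out a library. Between 5 µM and 2 µM on day 4, 18 members were higher and 16 lower (22.8% and 24.8% of all genes, 47.6% called), and with quantile normalization 14 were higher and 20 lower. In complex I 3 were higher and 11 lower, and in complex IV 5 were higher and 2 lower.

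Genes that act on these complexes without being part of them were read from lists. Of 16 tested regulators of mitochondrial biogenesis, 6 rose and 0 fell at 5 µM on day 4, with a median of 0.35, where 27.3% of all genes rose and 28.6% fell and their median was -0.01. The regulators that rose included the deacetylase gene Sirt1 (log2 change 1.86, limma adjusted p = 4.1e-12), the coactivator gene Pprc1 (0.87, limma adjusted p = 6.3e-06) and Gabpa, which encodes the DNA-binding subunit of GABP (0.36, limma adjusted p = 0.0014). The joint level of all 20 listed regulators, called or not, was 723 to 759 scaled CPM at 5 µM, against 516 to 531 in control. During control differentiation 3 of the 16 rose and 7 fell by day 4, where 30.3% of all genes rose and 29.5% fell (59.8% called).

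Counts of assembly factors at 5 µM on day 4 are to be read against the 28.6% of all genes that fell and the 27.3% that rose (55.8% called), and no difference from that share was tested. Of 15 complex I assembly factors 7 fell and 2 rose, among them Nubpl, which delivers iron-sulfur clusters (log2 change -1.36, limma adjusted p = 4.3e-06), and Timmdc1 (-0.99, limma adjusted p = 1.1e-05). Of 6 complex III assembly factors 4 fell and 0 rose, led by Bcs1l, which inserts the Rieske protein (-0.94, limma adjusted p = 0.00013). Of 20 complex IV assembly factors 4 fell, led by Pet100 (-1.37, limma adjusted p = 8e-06), and 2 rose, led by the copper chaperone gene Sco2 (1.80, limma adjusted p = 6.4e-09). The counts for complex II and complex V factors were 1 and 2 lower of 4 each, with 0 higher. Of 13 genes of the tricarboxylic acid cycle 6 fell and 2 rose, with a median of -0.04 and Suclg2 lowest (-1.63, limma adjusted p = 2.1e-11). Of the 13 mitochondrially encoded subunits 3 rose and 0 fell.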

How the data were processed

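RNA was taken with TRIzol from 30 C2C12 samples and made into libraries with an Illumina TruSeq RNA kit, per the labels. The authors deposited a single table of 48709 genes whose values, named CPM per the labels, are a signal: reads times 1 constant per library. Divided by that constant, 100% of values came out whole (tolerance 0.02 reads), and the columns summed to 892246 to 1079916, so a further scaling had been applied. The sources used here do not give the aligner, counter, strand, build, scaling or the handling of reads shared with pseudogenes. All columns of the table were used (0 left out). Replicates differed by more than counting error, so none was a copy.

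The 12946 genes that reached 1 scaled CPM in 3 or more libraries were fitted together as log2(value + 1) by limma 3.58.1 (R 4.3.3), using all 30 libraries, group means and a variance trend. Calls used p-values adjusted over all genes by Benjamini-Hochberg, with a threshold of 0.05. Isoform ratios were tested by two-sided exact permutation over libraries. Promoters were searched on both strands in RefSeq windows of GRCm38.p6, used for sequence and names only. Ratios of reads to day 0 carry exact 95% intervals for counting error. The scripts were tested on simulated data, where calls of genes with a mean under 5 scaled CPM in some group held more false calls. Of the tested members 5 are of that kind: Cox6a2, Cox7a1, Cox8b, Atp5s and Atp5sl.

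Named by rule were the paralogous subunits of complexes IV and V with Cycs and Cyc1, and for 5 µM against 0 µM and for control day 4 against day 0 the 2 largest rises and falls called in each complex with a mean of at least 5 in the higher group. The other members, among them Ndufs1, Ndufs8 and Atp5b, were named after their values were seen, and 1 member is counted but not reported singly here. Members and lists were chosen with earlier results of these data known. Lists are described by counts and medians, with no test of their own. Alternatives were other filters, pseudocounts of 0.1 and 5, other scalings, robust variances, a replicate block, the compared groups alone, edgeR 4.0.16 and DESeq2 1.42.0 on the recovered reads, each library left out in turn, and both libraries with foreign transcripts left out.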

Additional observations from a re-analysis of the deposited data

Results flagged for a closer look

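For members of each complex the effect of 5 µM on day 4 differed from that on day 2 in limma's test of the difference. The difference on the log2 scale, day 4 minus day 2, was 0.89 for Cox6a1, 0.87 for Cox8a, 0.60 for Sdhd, 0.47 for Cycs, 0.42 for Uqcrfs1 and 0.32 for Atp5b. It was -0.65 for Ndufs1, -0.61 for Ndufc1, -0.58 for Ndufs4 and -0.37 for Atp5g2. The differences of Cox6a1, Cox8a, Sdhd, Ndufs1 and Ndufs4 were called with each of the 12 libraries left out in turn, and those of Ndufc1, Cycs, Uqcrfs1, Atp5b and Atp5g2 were lost in at least 1 of these fits.

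Signal also appeared in members that failed the filter on low values and so entered no comparison. Cox4i2, a subunit IV form known from lung, reached 4.81 scaled CPM in the first 2 µM library of day 1, which holds adipocyte transcripts, and was at 0 in all control libraries. Cox6b2, known from testis, reached 0.843 scaled CPM in the third 5 µM library of day 1, which holds lung and leukocyte transcripts, and 0.808 in the first 2 µM library of day 1. Cox7b2, also known from testis, reached 0.875 scaled CPM in the first 5 µM library of day 2.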

How the results depend on the processing

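Alternatives of single changes were run only for the named members and in part of the comparisons, 477 changes in all. Control day 2 against day 1, control day 4 against day 2, 5 µM day 4 against day 2 and 5 µM day 4 against day 0 were left out. Over all members 15 of 31, 17 of 35, 26 of 45 and 62 of 66 calls of these held with each library left out in turn. The comparison of 2 µM on day 2, with 0 calls, was also left out. Of 3634 alternative values of called changes of single members, 3317 kept sign and call, 316 lost the call and 1 changed sign, which was Atp5b in control cells on day 4 against day 0, at -0.09 with quantile normalization. Of 6213 alternative values of changes that were not called, 168 gained a call, each with its sign kept, and 6045 stayed uncalled, 182 of them with the other sign. With the compared groups alone, counts moved to 52 higher for control day 2 against day 1, to 5 higher and 23 lower for 5 µM on day 2, to 1 lower for 5 µM on day 1, to 0 higher for 2 µM on day 1 and to 3 lower for 2 µM on day 2. With no filter, 5 µM on day 1 had 0 lower, 5 µM on day 2 had 0 higher and 7 lower, 2 µM on day 1 had 0 higher and 2 µM on day 4 had 1 lower. A pseudocount of 0.1 gave 1 higher for 5 µM on day 2, and one of 5 gave 4 lower for 2 µM on day 4. For 5 µM on day 1, 1 was lower with median-of-ratios scaling, a nuclear sum or edgeR, and with quantile normalization 2 were higher and 0 lower. A fixed sum per library gave 1 higher for 5 µM on day 2, 5 lower for 5 µM on day 4 against day 2, 6 lower for 5 µM on day 4 against day 0 and 2 lower for control day 4 against day 0; a nuclear sum gave 3, 1 and 2 and quantile normalization 3, 4 and 2 in the last 3 of these. A nuclear sum also gave 1 higher for 2 µM on day 4. Without both libraries with foreign transcripts, 2 were higher for 5 µM on day 1, 0 higher for 2 µM on day 1 and 1 higher for 2 µM on day 4. With a pseudocount of 0.1 the rises of the ratios from day 0 were 9.45 for Cox6a2, 3.29 for Cox7a1 and 8.0 for Cox8b, and with 5 they were 4.1, 0.81 and 2.74. In each case the cause was not tested.

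Leaving out each library in turn gave, as lowest and highest counts of members higher and then lower, 18 to 25 and 4 to 11 for control day 1 against day 0, 16 to 40 and 0 for day 2 against day 1, 16 to 49 and 1 to 2 for day 4 against day 2 and 64 to 73 and 1 to 2 for day 4 against day 0. For 5 µM against 0 µM they were 0 to 2 and 0 to 3 on day 1, 0 to 1 and 5 to 20 on day 2 and 12 to 19 and 19 to 26 on day 4. For 2 µM they were 0 to 2 and 0 on day 1 and 0 to 1 and 0 to 6 on day 4. They were 15 to 21 and 13 to 16 for 5 µM against 2 µM, 28 to 48 and 0 to 3 for 5 µM day 4 against day 2, 63 to 68 and 0 to 1 for 5 µM day 4 against day 0 and 3 to 10 and 2 to 7 for the change of effect. Among control libraries, leaving out the first of day 1 gave 4 lower for day 1 against day 0 and 16 higher for day 2 against day 1, the second of day 0 gave 6 lower on day 1, and for day 4 against day 2 the first of day 2 gave 21 higher and the second of day 4 gave 16. The lower count at 5 µM on day 2 was 6 without the third control library and 5, 7 and 20 without the first, the second and the third 5 µM library. That at 2 µM on day 4 was 6 without the third control library, 0 without the second 2 µM library and 1 without any other. For 5 µM day 4 against day 2 the higher count was 28 without the first 5 µM library of day 2. The change of effect had 10 higher and 2 lower without the second control library of day 4, 3 higher without the third or without the second 5 µM library of day 2, 3 lower without the second control library of day 2 and 2 lower without the third 5 µM library of day 2. The ratios ranged from 6.16 to 6.49, 1.88 to 2.4 and 4.72 to 5.04 for control day 4 against day 0, from -3.11 to -2.77, -1.61 to -1.08 and -1.9 to -1.59 for 5 µM and from -1.0 to -0.67, -0.76 to -0.24 and -0.48 to -0.17 for 2 µM, in the order Cox6a2, Cox7a1, Cox8b.

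Libraries with the same replicate number did not deviate together (median r 0.01 over 135 pairs, 2 over 0.1). No effect of the number was thus seen, which does not exclude a pairing that the labels leave unstated. With the replicate block 18 members were higher and 25 lower at 5 µM on day 4, 2 and 13 on day 2 and 1 and 2 on day 1. Relative to the values as deposited, the largest shift of the median over all genes came with a fixed sum per library for 5 µM day 4 against day 0, where it was -0.05 in place of 0.07 and the members' median 0.46 in place of 0.61. Depth limits the low members: on day 0 Cox6a2 and Cox8b rest on 1 read each.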
